A study of Homo sapiens with 4 samples.

Results

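The genes of mRNA cap synthesis and nuclear cap binding were examined in K562-U2AF1 S34F cells given SF1-8. They are 7 genes, namely RNMT, RNGTT, CMTR1, CMTR2, NCBP1, NCBP2 and NCBP3, out of 64873 entries of the gene table, of which 62778 carry a gene name. Each was found by its symbol, and the entry with the highest mean count was taken. The group was chosen by the p-value of RNMT, one of the smallest in this very comparison, so the values of RNMT are given as a description and not as a test.

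K562 is an established human erythroleukemia line. All 4 libraries came from K562 cells that overexpress U2AF1 S34F, a mutant form of the small subunit of the U2 auxiliary splicing factor, which recognizes the end of an intron. In 2 libraries (DMSO 1 and DMSO 2) the cells had received the solvent DMSO, and in the other 2 (SF1-8 1 and SF1-8 2) they had received SF1-8 at 30 µM, each for 48 h. SF1-8 is a small molecule selected for binding to the UHM domain, the part of U2AF1 that contacts U2AF2. Cells with wild-type U2AF1 were not analysed here, the labels do not say whether the line is 1 clone, and they do not say whether the 2 libraries of a group came from separate cultures. The p-values therefore measure only the spread between these libraries, which may be technical.

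A cap is placed on the start of every RNA made by RNA polymerase II while the RNA is still being synthesized. RNGTT trims the end of the RNA and adds a guanosine, RNMT methylates that guanine, and CMTR1 and CMTR2 methylate the ribose of the first and the second transcribed nucleotide. In the nucleus the finished cap is bound by NCBP2, held by its partner NCBP1, and this cap binding complex serves in splicing, export and RNA turnover. NCBP3 has been described as a further cap binding protein that can pair with NCBP1.

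Total counts were between 45522905 (DMSO 1) and 67554610 (SF1-8 1). DMSO 1 had 17908 entries above 1 FPKM, against 14819 to 15179 in the other libraries. FPKM is the level of a gene per length of its exons and per depth of its library. The 8 erythroid entries were all expressed, with summed levels of 289 and 288 FPKM with DMSO and 263 and 282 FPKM with SF1-8. In 3 of the 8, both SF1-8 libraries were below both DMSO libraries, as in 20.0% of all entries tested. None of the 8 passed the adjusted test. GATA1, the erythroid transcription factor, was between 75.9 and 79.1 FPKM. U2AF1 was between 11.4 and 12.0 FPKM. Of the 8 stromal markers, 6 were lower in both SF1-8 libraries than in both DMSO libraries, as were 20.0% of all entries tested. Of the 7 tested, none passed the adjusted test. COL1A2, COL3A1, DCN, LUM and PDGFRB, all lower, had an unadjusted p under 0.05 by edgeR, as did 4.33% of all entries tested. COL1A1 and THY1 did not. The sum of the 8 stromal markers was 9.94 and 4.72 FPKM with DMSO against 2.46 and 0.595 FPKM with SF1-8. No stromal marker was at 0 in every library. The other blood and vessel markers were low, with 2 of 5 myeloid and 3 of 4 endothelial markers listed at 0 in every library, and LYZ reached 5.80 FPKM.

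RNMT was the member that differed most between the groups. The gene lies on the plus strand at chr18:13726660-13764556 (GRCh38), and GENCODE lists 10 transcripts for it, 7 of them coding, with 12 exons and 504 amino acids in the longest coding form. Its level was 9.11 FPKM in DMSO 1 and 9.44 FPKM in DMSO 2. It was 3.65 FPKM in SF1-8 1 and 3.81 FPKM in SF1-8 2. The libraries of a group thus lay close together and the groups did not overlap. The mean went from 9.28 ± 0.234 FPKM (SD, n = 2) to 3.73 ± 0.112 FPKM (SD, n = 2), or 40.2% of the level with DMSO. The log2 fold change was -1.29 (SE 0.0932, 95% interval -1.52 to -1.05), equal to a 2.44-fold lower level. The RNA is from whole cultures, so less RNMT RNA per cell and fewer cells with RNMT RNA cannot be told apart. The sum of the stromal markers was also lower in both SF1-8 libraries, at 2.46 and 0.595 FPKM against 9.94 and 4.72 FPKM with DMSO. The sum of the erythroid entries was lower as well, at 263 and 282 FPKM against 289 and 288 FPKM with DMSO. The part of either sum in the RNMT difference was not tested.

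By size of p, RNMT was in place 12 of 26167 entries tested, with an adjusted p of 0.0556 from edgeR's quasi-likelihood test. The adjusted values of its neighbours in that order were 0.0459 for FAM126A, one place before it, and 0.0556 for CREB1, one place after it. Across all entries, 11 (0.0420%) had an adjusted p under 0.05, and none of the 7 cap genes was among them. At an unadjusted p under 0.05 there were 1132 entries (4.33%), with RNMT as the single cap gene. NCBP2 was just past that limit, with an unadjusted p of 0.0529 by edgeR. DESeq2 placed 164 of 25152 entries (0.652%) under an adjusted p of 0.05, again with RNMT as the single cap gene. Because RNMT chose the group, nothing is read from its place in these counts.

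**Figure D1:**
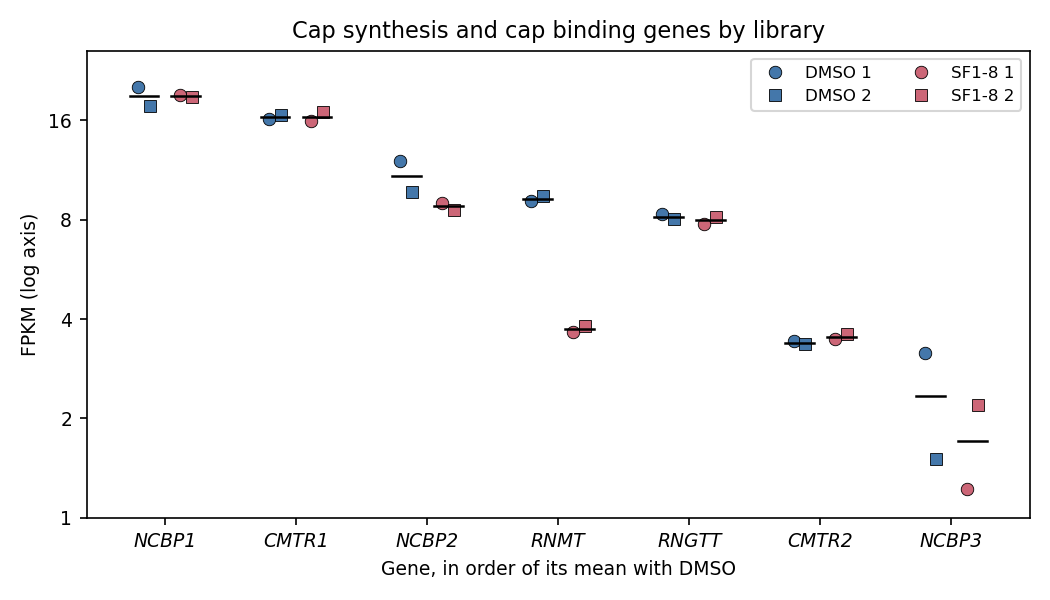
Level of each cap gene in each library, in FPKM on a log axis, with genes in order of their mean with DMSO; circles are replicate 1, squares replicate 2, and bars the group means. The 2 SF1-8 points of RNMT, at 3.65 and 3.81 FPKM, lie below its DMSO points at 9.11 and 9.44 FPKM, and NCBP3 has the widest spread within a group.

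RNGTT, the enzyme that opens cap synthesis, is encoded on the minus strand at chr6:88609897-88963618. Its level was 8.30 and 8.04 FPKM in the DMSO libraries and 7.77 and 8.17 FPKM in the SF1-8 libraries. The groups overlapped, and the means were 8.17 ± 0.189 FPKM and 7.97 ± 0.280 FPKM (SD, n = 2 each). The log2 fold change was -0.0077 with an interval of -0.22 to 0.21 (adjusted p = 0.996, edgeR).

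CMTR1, which methylates the first nucleotide, lies on the plus strand at chr6:37423782-37482827. It measured 16.2 and 16.6 FPKM with DMSO and 15.9 and 16.9 FPKM with SF1-8, and the ranges overlapped. Its log2 fold change was 0.031 with an interval of -0.18 to 0.24 (adjusted p = 0.984, edgeR). CMTR2, the methyltransferase of the second nucleotide, lies on the minus strand at chr16:71281389-71289715 and has 3 exons in its longest coding form. It was lower expressed, at 3.44 and 3.35 FPKM with DMSO and 3.49 and 3.59 FPKM with SF1-8. Both SF1-8 values of CMTR2 were above both DMSO values, but by little, with a log2 fold change of 0.087 and an interval of -0.15 to 0.33 (adjusted p = 0.970, edgeR).

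NCBP1, the large subunit of the cap binding complex, lies on the plus strand at chr9:97633668-97673748. It was the most highly expressed member, at 20.2 and 17.7 FPKM with DMSO and 19.0 and 18.8 FPKM with SF1-8. The SF1-8 values lay between the DMSO values, and the log2 fold change was 0.027 with an interval of -0.17 to 0.22 (adjusted p = 0.986, edgeR). NCBP2, the small subunit that contacts the cap itself, lies on the minus strand at chr3:196935402-196942560 and codes for 156 amino acids. Its level was 12.1 and 9.69 FPKM with DMSO and 9.02 and 8.54 FPKM with SF1-8. All SF1-8 values were thus below the DMSO values, yet the gap between the DMSO libraries was larger than that between the groups' nearest libraries. The means of NCBP2 were 10.9 ± 1.67 FPKM and 8.78 ± 0.335 FPKM (SD, n = 2 each). The log2 fold change was -0.28 (SE 0.110), with an interval of -0.56 to 0.0050 that reached 0 (adjusted p = 0.970, edgeR). NCBP2-AS1 overlaps NCBP2 on the opposite strand, and its own entry was at most 0.844 FPKM. Whether the counting used strand is not given in the sources used here.

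NCBP3, the further cap binding protein, lies on the minus strand at chr17:3802158-3846246 and was the least even member and the lowest in FPKM. FPKM is divided by exon length, and the GENCODE exons of NCBP3 cover 14718 bases, against 4916 to 7582 for the other members. NCBP3 measured 3.16 and 1.50 FPKM with DMSO and 1.22 and 2.19 FPKM with SF1-8. Replicates differed 2.10-fold with DMSO and 1.80-fold with SF1-8, gaps larger than those of 91.5% and 90.0% of the 14924 genes with at least 1 FPKM on average with DMSO. The log2 fold change of -0.41 (SE 0.411) had an interval of -1.46 to 0.64 (adjusted p = 0.970, edgeR), so a change as large as that of RNMT in the same direction lies within it. For RNGTT, CMTR1, CMTR2, NCBP1 and NCBP2 the intervals do not reach a halving, a log2 fold change of -1, or a doubling. A p above the threshold does not show that these genes were unaffected.

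**Figure D2:**
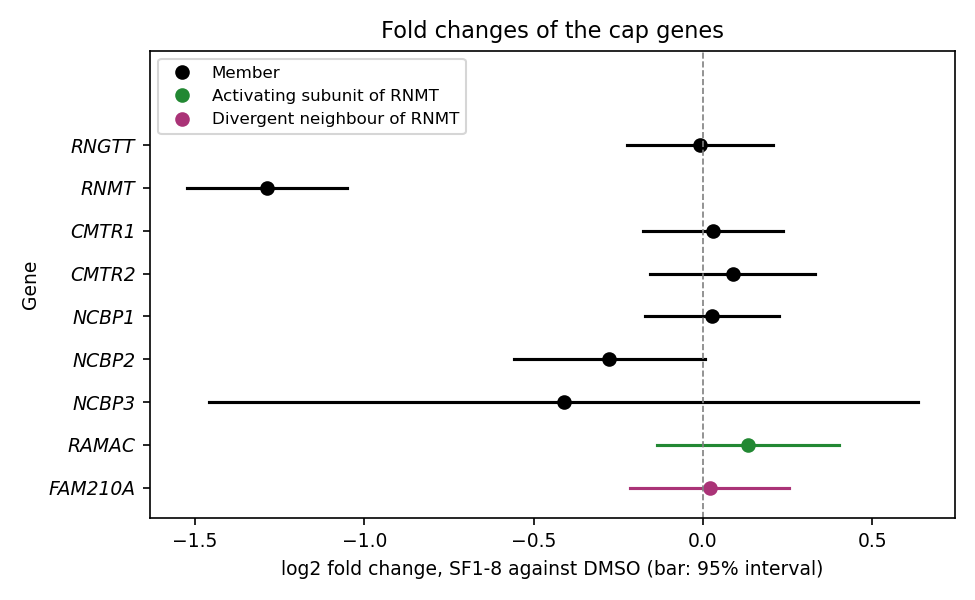
Log2 fold change, SF1-8 against DMSO, of the 7 cap genes, of RAMAC and of FAM210A, with bars for the 95% interval from edgeR. RNMT lies at -1.29 and the interval of NCBP3, from -1.46 to 0.64, is the widest.

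In counts over the group, both SF1-8 libraries were below both DMSO libraries for 2 of 7 members (RNMT and NCBP2), where 20.0% of all entries tested had this pattern. They were above for 1 of 7 (CMTR2), against 14.2% of all entries. Without RNMT, whose p chose the group, they were below for 1 of 6 members and above for 1 of 6. The median log2 fold change was -0.0077 over the 7 members and 0.0095 without RNMT, beside -0.011 over all entries tested.

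The order of the levels in FPKM with DMSO was NCBP1, CMTR1, NCBP2, RNMT, RNGTT, CMTR2 and NCBP3, and it was the same in both DMSO libraries. No 2 neighbours in this order overlapped in their DMSO range. With SF1-8, RNMT stood below RNGTT in both libraries, and at 3.65 and 3.81 FPKM it was just above CMTR2. Ratios within a library set aside its depth. RNMT was 1.10 and 1.18 times the level of RNGTT with DMSO, and 0.470 and 0.466 times with SF1-8. Against CMTR1 the ratio was 0.563 and 0.570 with DMSO and 0.229 and 0.225 with SF1-8. The ratio of CMTR1 to RNGTT, which leaves RNMT out, was 1.95 and 2.06 with DMSO and 2.05 and 2.07 with SF1-8. The ratios that hold RNMT repeat the difference on which it was chosen, so nothing further is read from them. Within the cap binding complex, the ratio of NCBP2 to NCBP1 was 0.595 and 0.547 with DMSO and 0.473 and 0.454 with SF1-8. NCBP2 itself was lower in both SF1-8 libraries, and how many other gene pairs separate in this way was not computed. Nothing further is read from this ratio.

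**Figure D3:**
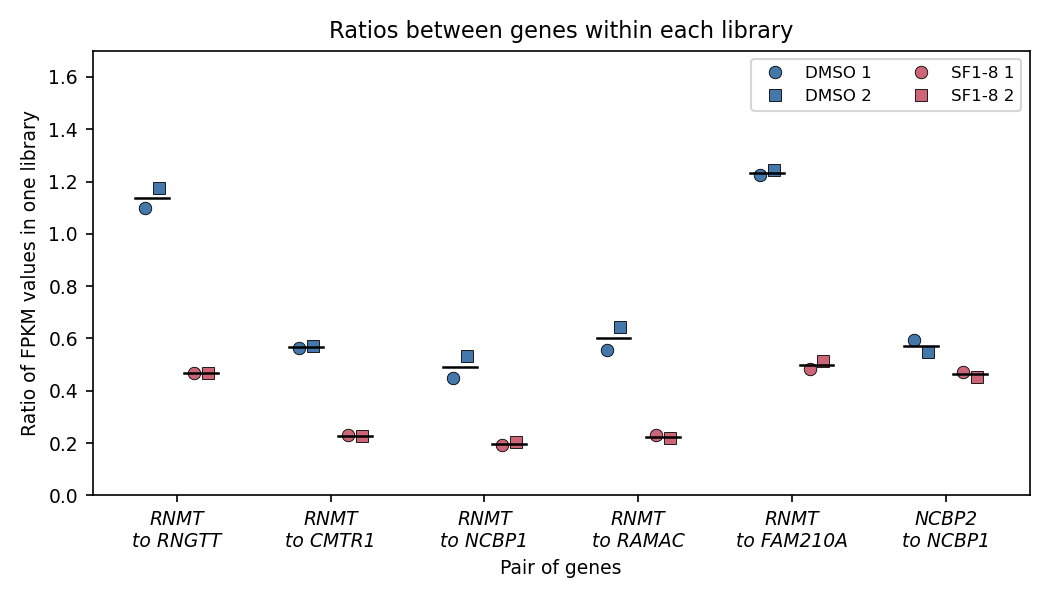
Ratio of the FPKM values of 2 genes within each library, for 6 pairs; circles are replicate 1, squares replicate 2, and bars the group means. In the 5 pairs with RNMT the SF1-8 points lie well below the DMSO points, for example 0.470 and 0.466 against 1.10 and 1.18 for RNMT to RNGTT.

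RAMAC is the small protein that binds RNMT and activates it. It measured 16.4 and 14.7 FPKM with DMSO and 15.9 and 17.4 FPKM with SF1-8, with overlapping ranges and a log2 fold change of 0.13 (interval -0.14 to 0.40, adjusted p = 0.970, edgeR). The ratio of RNMT to RAMAC was 0.556 and 0.644 with DMSO and 0.229 and 0.218 with SF1-8.

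FAM210A, which codes for a mitochondrial protein, starts beside RNMT and runs the other way, at chr18:13663347-13726663 on the minus strand. The FAM210A and RNMT entries share 4 bases. FAM210A measured 7.44 and 7.59 FPKM with DMSO and 7.58 and 7.40 FPKM with SF1-8. Its log2 fold change was 0.020 with an interval of -0.22 to 0.26 (adjusted p = 0.992, edgeR). Of the expressed genes within 5 kb of the other members, none passed the adjusted test, and all had an adjusted p of at least 0.970.

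The entries whose pattern over the 4 libraries lay nearest to RNMT were MYL9 (0.0271), CNIH3 (0.0616), LSM7 (0.0790), RN7SKP235 (0.114) and STEAP1B (0.144). Nearness was the Euclidean distance of centred log2 CPM (counts scaled to the size of the library). The MYL9, CNIH3, RN7SKP235 and STEAP1B entries had only 9 to 128 counts per library. Only LSM7, a subunit of the ring-shaped LSM complexes that bind RNA, was expressed above 2 FPKM. It measured 10.2 and 10.9 FPKM with DMSO and 3.89 and 4.17 FPKM with SF1-8. The nearest cap gene was NCBP2, at a distance of 1.05. These genes were picked for their pattern, so it was not tested.

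The wider cap pathway was read from 5 lists with 50 genes tested. None of the 50 had an adjusted p under 0.05 in either direction by edgeR, with a smallest adjusted p of 0.970, and none by DESeq2, while 2 had an unadjusted p under 0.05, both higher, by edgeR, where 4.33% of all entries tested had one. In all, 14 had a log2 fold change below 0 and 36 above 0, the median was 0.037, and 48 lay within 0.5 of 0. Both SF1-8 libraries were below both DMSO libraries for 6 of the 50 genes and above for 8, where 20.0% and 14.2% of all entries tested had these patterns. Of the 50, 12 share their entry with another gene.

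Partners of cap synthesis, which bring the enzymes to RNA polymerase II or act on the cap beside them, numbered 8 and had a median log2 fold change of 0.010. The lowest was CCNH, the cyclin of the kinase that phosphorylates the polymerase tail, at -0.23. It measured 6.12 and 6.43 FPKM with DMSO and 5.00 and 5.51 FPKM with SF1-8. The highest was SUPT4H1, a subunit of the elongation factor DSIF, at 0.16, in an entry shared with AC004687 and RNF43. The 8 partners of nuclear cap binding had a median of 0.019 and ranged from -0.10 for ZFC3H1, a nuclear RNA decay factor, to 0.67 for CTIF, a translation factor that works with the cap binding complex. CTIF was low, at 0.655 and 0.903 FPKM with DMSO and 1.12 and 1.34 FPKM with SF1-8, and was one of the 2 genes under an unadjusted p of 0.05 (adjusted p = 0.970, edgeR).

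The 14 genes of cytoplasmic cap binding and its regulators had a median log2 fold change of 0.052. Of these 14, 7 share their entry with another gene. The lowest was LARP1, a cap binding regulator of ribosomal protein mRNAs, at -0.37 (SE 0.359). It measured 65.0 and 65.5 FPKM with DMSO but 30.6 and 68.5 FPKM with SF1-8, so the difference lay in SF1-8 1 alone. The highest was EIF4A1, an RNA helicase of translation initiation, at 0.30, in an entry shared with SENP3, CD68 and others.

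The 14 genes of decapping had a median of 0.031, from -0.43 (SE 0.493) for DCP2, the decapping enzyme, to 0.99 (SE 0.340) for NUDT16, another decapping enzyme. DCP2 measured 18.3 and 21.5 FPKM with DMSO and 7.27 and 21.8 FPKM with SF1-8, low in SF1-8 1 alone, as LARP1 was. NUDT16 was the other gene under an unadjusted p of 0.05 (adjusted p = 0.970, edgeR), with 1.23 and 1.30 FPKM with DMSO and 1.63 and 3.32 FPKM with SF1-8, and most of the difference lay in SF1-8 2. The 6 genes of snRNA cap hypermethylation and import had a median of 0.10, from -0.026 for TGS1, the hypermethylase itself, to 0.21 for SMN1, which has a near-identical copy, SMN2, so its value is uncertain.

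**Figure D4:**
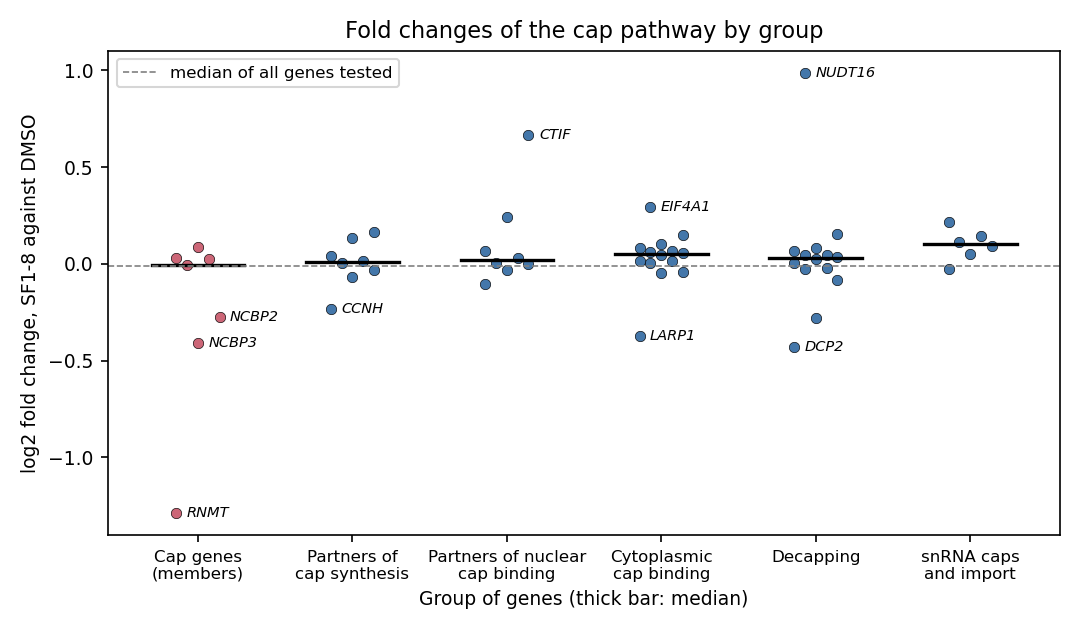
Log2 fold change, SF1-8 against DMSO, of the 7 cap genes and the 50 genes of the 5 lists, one point per gene, with thick bars for the median of a group and a dashed line for the median of all genes tested. RNMT at -1.29 lies below every gene of the lists, whose lowest is DCP2 at -0.43. RNMT was chosen on its p in this comparison, so nothing is read from its place.

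The fold change of RNMT was between -1.35 and -1.12 over 12 further settings of the processing, including each library left out in turn. Every setting used the libraries in which RNMT was chosen on its p, so nothing is read from this steadiness. Those of RNGTT, CMTR1, NCBP1 and NCBP3 changed sign in at least 1 setting, so no direction is given for them.

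**Figure D5:**
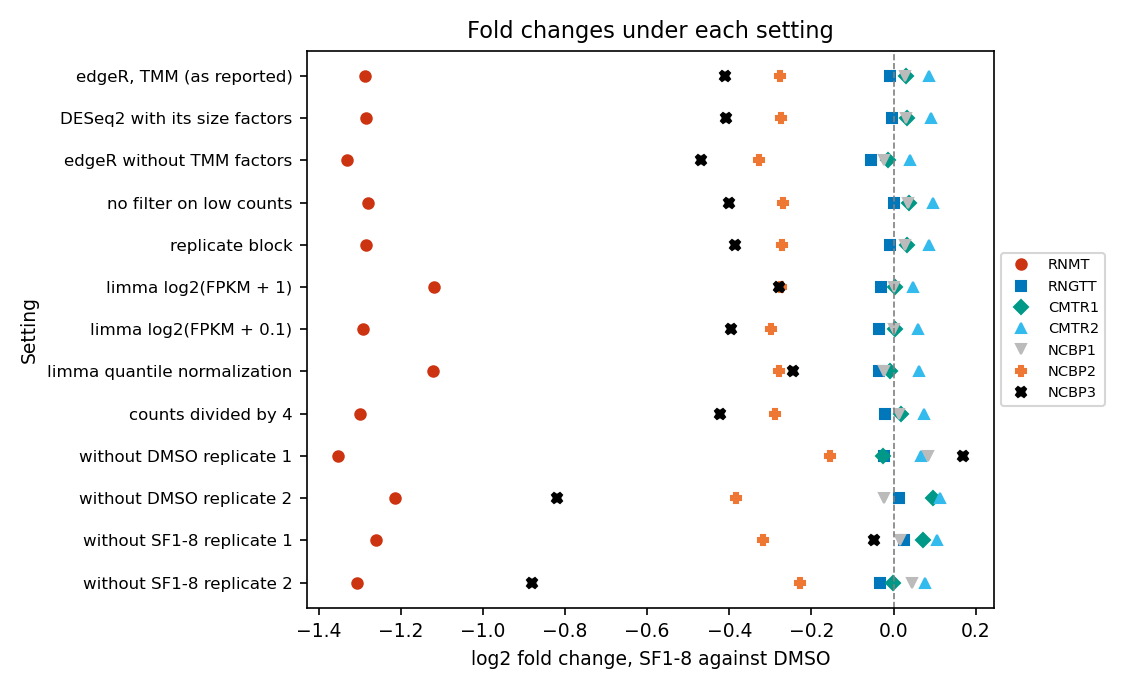
Log2 fold change of the 7 cap genes, SF1-8 against DMSO, under the reported fit and 12 other settings, one marker per gene. RNMT stays between -1.35 and -1.12, and NCBP3 moves from -0.88 to 0.17 as single libraries are left out. RNMT was chosen on its p in these same libraries, so nothing is read from its steadiness.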

How the data were processed

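RNA-seq libraries of K562 cells overexpressing U2AF1 S34F were analysed, 2 given DMSO and 2 given SF1-8. Group and replicate number were read from the sample titles, which call the DMSO libraries control and give a time for the SF1-8 libraries only. The submitters' processing notes name cutadapt, FastQC, Bowtie2, HISAT2 and StringTie and the build hg38, without versions. The authors deposited, per table entry and library, an FPKM value (scaled by the authors for length and depth, with 0.0001 standing in at a count of 0) and a whole-number count. These deposited counts were taken as estimated counts, since 4 was their commonest value above 0, so no counting interval was computed. Which length of an entry the authors used for its FPKM value was not tested.

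Entries that name no gene (2095 of 64873, with 0.372% of the counts) entered neither the library sizes nor the tests. A symbol was matched to the entry naming it that had the highest mean count. Counts were scaled by TMM, filtered by filterByExpr (26167 entries kept) and tested with the quasi-likelihood test of edgeR 4.0.16 in R 4.3.3, SF1-8 against DMSO, with Benjamini-Hochberg adjustment over all entries tested. Intervals of fold changes are at the 95% level. Steps were tested on simulated counts. Alternatives were DESeq2 1.42.0, other scalings and filters, limma 3.58.1 on log2(FPKM + 1) and log2(FPKM + 0.1), the replicate number as a block, counts divided by 4, and leaving out each library. Gene structures come from GENCODE version 29 (GRCh38).

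The cap genes and the lists were chosen with earlier results of these data known. Named from the lists were genes with an unadjusted p under 0.05 and the highest and lowest fold change of each list. Also named were expressed neighbours within 5 kilobases and the 5 entries nearest to RNMT in centred log2 CPM.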

Additional observations from a re-analysis of the deposited data

How the results depend on the processing

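In 12 other settings, 74 of 84 member values kept their sign. RNMT lay between -1.35 and -1.12, with adjusted p from 1.80e-18 (DESeq2) to 0.259 (limma on log2(FPKM + 1)), against 0.0556 as reported (edgeR). These settings refit the libraries in which RNMT was chosen on its p, so its values remain a description in each of them. The number of cap genes past the adjusted threshold went from 0 to 1, each time RNMT, with DESeq2, without TMM factors, without a filter on low counts and with counts divided by 4. It was 0 with any library left out. Over all genes, 11 calls became 164 with DESeq2, 31 without a filter, and 0 under each of the 3 limma settings, where 1493 to 1499 genes had an unadjusted p under 0.05. Leaving out a library gave 0 (without DMSO 1) to 30 (without SF1-8 1). The same-numbered libraries did not deviate together (correlation 0.016). With the replicate block, 0 genes were called (971 at an unadjusted p under 0.05, edgeR), and RNMT was at -1.29 with an adjusted p of 0.168. Cap genes with an unadjusted p under 0.05 by edgeR numbered 2 with that block and 2 without a filter, against 1 as reported. Over all entries these settings had 971 of 26167 and 1452 of 37155 under that limit.

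Signs reversed without TMM factors for CMTR1 (-0.014) and NCBP1 (-0.022), and with quantile normalization for CMTR1 (-0.0098) and NCBP1 (-0.024). With single libraries left out, the log2 fold change ranged from -0.025 to 0.095 for CMTR1, -0.023 to 0.084 for NCBP1, -0.033 to 0.026 for RNGTT and -0.88 to 0.17 for NCBP3. For NCBP2 it ranged from -0.38 to -0.15. No list gene was called in any setting. The causes of these shifts were not tested. With 2 libraries a group, an exact two-sided permutation test cannot go below p = 0.333, and depth was lowest in DMSO 1.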
